A study of Mus musculus with 8 samples.

Results

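The genes described here are 8 transcription factor genes of regulatory T cells (Tregs): Foxp3 with its forkhead relatives Foxp1 and Foxp4, and the Ikaros family genes Ikzf1, Ikzf2, Ikzf3, Ikzf4 and Ikzf5. They were chosen by name, and all 8 had a row among the 19703 genes of the deposited table. The Tregs came from FOXP3-GFP reporter mice (strain label Foxp3-GFP, sample titles WT). Every sample was stimulated through CD3 and CD28 on beads, in medium with the Th17-polarizing cytokines IL6, IL23 and IL1B, and taken on day 6. The FcCD70 cultures held FcCD70 as well, a soluble CD70 that engages the costimulatory receptor CD27, and the untreated cultures held none. Messenger RNA was sequenced, and the deposited table has columns for 7 of the 8 labelled samples: the FcCD70 samples numbered 1 to 3 and the untreated samples numbered 1 to 4. In each of the 8 samples the treatment field contradicts the title. Grouping here goes by title, as do the names of the columns, and if the titles are wrong every sign given here turns round. Separate mice are named for none of the samples, so the p-values measure only the spread between samples, which may be technical. Purified cells were sequenced, and neither the marker used to purify them on that day nor the age of the mice was found in the labels.

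FOXP3 is the forkhead factor that defines the Treg lineage, and it binds DNA together with other factors and with its own relatives. Foxp1 and Foxp4 encode forkhead proteins that can pair with FOXP3, and FOXP1 is also known for keeping T cells quiescent. The Ikaros family encodes zinc finger factors that pair with one another through fingers near their C terminus and recruit corepressor complexes. Ikzf1 encodes Ikaros, Ikzf2 Helios (a factor of stable Tregs), Ikzf3 Aiolos (in mouse T cells known for repressing Il2 during Th17 differentiation), Ikzf4 Eos (a corepressor partner of FOXP3) and Ikzf5 Pegasus.

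The coding sequences show how members resemble each other where they pair or bind DNA. Whether reads of one could be counted for another is described by the comparison of 50-base stretches over all 8 genes that follows them. The lines below give the most alike in-frame stretch of 90 coding bases among Ikzf1 to Ikzf4, which lies in the part that encodes the C-terminal fingers, and the best match in Ikzf5. It is shown for Ikzf1, Ikzf2 and Ikzf5 only, which are not the most alike of the family. Capitals mark bases that differ from Ikzf1. The sequences and annotation are GENCODE M21 on GRCm38, each on the strand of its gene.
Ikzf1 (chr11:11769417-11769506, exon 9): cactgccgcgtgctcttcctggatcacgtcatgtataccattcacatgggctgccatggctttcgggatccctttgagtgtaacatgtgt
Ikzf2 (chr1:69538837-69538926, exon 8): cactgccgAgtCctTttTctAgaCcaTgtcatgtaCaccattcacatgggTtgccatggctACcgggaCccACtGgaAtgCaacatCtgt
Ikzf5 (chr7:131391706-131391795, exon 4): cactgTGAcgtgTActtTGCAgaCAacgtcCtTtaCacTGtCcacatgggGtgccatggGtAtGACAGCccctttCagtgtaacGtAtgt
Over these 90 bases 72 of Ikzf2 and 61 of Ikzf5 were as in Ikzf1, and the longest unbroken runs shared with Ikzf1 were 14 bases in Ikzf2 and 8 in Ikzf5.

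Among the FOXP genes the most alike stretch lies in the part that encodes the forkhead domain, across an exon junction in each gene. It is shown only for Foxp3 and Foxp4, which is more like Foxp3 there than Foxp1 is. Capitals mark bases that differ from Foxp3.
Foxp3 (chrX:7592713-7592950, exons 10 and 11): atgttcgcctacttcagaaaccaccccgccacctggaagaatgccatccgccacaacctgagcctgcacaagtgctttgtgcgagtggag
Foxp4 (chr17:47871301-47874673, exons 13 and 14): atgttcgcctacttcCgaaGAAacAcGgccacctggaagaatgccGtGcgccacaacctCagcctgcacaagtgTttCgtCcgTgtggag
Of these bases 77 of Foxp4 were as in Foxp3, with a longest unbroken run of 18. Across all annotated transcripts, no stretch of 50 bases was common to any pair of the 8 genes. Reads of 50 or more bases without errors would therefore not have been shared between members. No label gives the read length.

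Other genes overlapped the exons of some members. Ikzf5 shares 81.3% of its exonic bases with Pstk on the opposite strand, and 12.9% of its 50-base stretches with Gm10356 on the same strand. Foxp3 shares 12.9% of its exonic bases with Ccdc22 on the opposite strand and 5.81% with Ppp1r3f, genes with mean normalized counts of 228 and 77.8. It also shares 18.6% with Flicr, a non-coding RNA gene annotated on the Foxp3 strand that has no row in the table. The kit marks strand, but the strand setting used in counting was not found in the labels.

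The libraries held 18183470 to 23359331 recovered reads in the FcCD70 group and 18159685 to 23527899 in the untreated group. Every one of the 8 members passed the filter used for testing (a mean normalized count of at least 10), and the lowest count of any member in any library was 676 reads, for Foxp4 in the FcCD70 library numbered 2. That library stood furthest from the rest, with a root mean square log2 difference of 0.525 from the median of the others over 11083 genes, against 0.311 to 0.490 for the other libraries. It held the lowest of 7 values for 28.4% of the genes tested. The libraries carried T cell markers, which do not tell Tregs from other CD4 T cells. All 8 T cell identity genes were measured, and their summed level was 7080 to 7908 TPM (transcript abundance scaled for gene length and library size) in FcCD70 libraries and 6990 to 7416 TPM in untreated ones. Of 20 markers of other cells with a row, 7 had a mean of at least 10 (Cd8b1, Cd79a, Ms4a1, Cd22, Epcam, Col1a1 and Pecam1). Ncr1, S100a8 and Mcpt4 were at 0 in every library. The summed level of these 20 markers was 206 to 295 TPM in FcCD70 libraries and 211 to 295 TPM in untreated ones, mostly from Pecam1, and its part in the results was not tested.

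Ikzf1 and Foxp3 had the highest levels of the 8 genes, and Foxp4 and Ikzf5 the lowest. For Ikzf5, 81.3% of the exonic bases overlap Pstk, and the strand setting of the counting was not found. How far that overlap moved the Ikzf5 level was not tested. The levels below are in TPM, scaled here to the exon length of each gene, and are means over groups with their SD. Ikzf1 had 316 ± 18.9 TPM with FcCD70 (n = 3) and 337 ± 33.2 TPM untreated (n = 4), and its mean over all libraries exceeded that of 95.8% of the genes tested. Foxp3 had 203 ± 85.7 TPM with FcCD70 and 232 ± 43.2 TPM untreated, above 92.9% of genes. In each of the 7 libraries Ikzf1 lay above Foxp3, and the ranges of the pair did not overlap.

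Helios, Aiolos and Eos transcripts formed the middle of the order. Ikzf2 had 95.1 ± 24.7 TPM with FcCD70 and 89.9 ± 16.2 TPM untreated, and Ikzf3 had 78.9 ± 35.1 TPM with FcCD70 and 102 ± 28.6 TPM untreated. Ikzf2 lay above Ikzf3 in 4 of 7 libraries, so the order of these neighbours was within their spread. Ikzf4 had 72.8 ± 22.1 TPM with FcCD70 and 68.0 ± 12.8 TPM untreated. Foxp1 followed with 47.5 ± 6.83 TPM with FcCD70 and 53.2 ± 3.33 TPM untreated. Foxp4 had 35.8 ± 11.8 TPM with FcCD70 and 35.8 ± 2.15 TPM untreated, and Ikzf5 had 36.7 ± 4.86 TPM with FcCD70 and 32.6 ± 3.998 TPM untreated. Foxp4 lay above Ikzf5 in 4 of 7 libraries. Apart from Ikzf1 and Foxp3, the ranges of all neighbours in this order overlapped. When the longest annotated transcript was taken as the length, Ikzf1 and Foxp3 stayed first and second, while Ikzf3 moved above Ikzf2, Foxp1 above Ikzf4 and Ikzf5 above Foxp4, so the order of those neighbours depends on the gene length used.

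**Figure D1:**
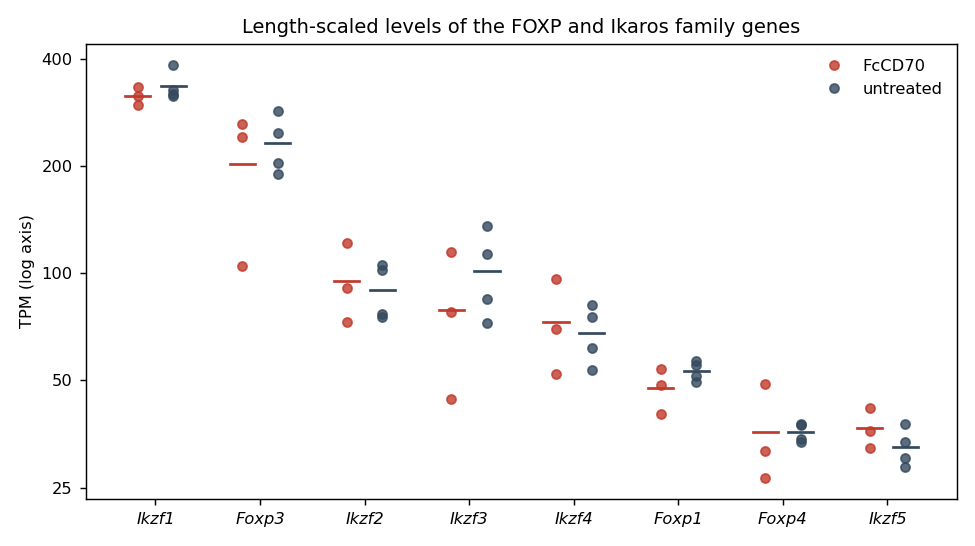
Level of each gene in TPM (log axis), with 1 point per library and a line at the group mean, FcCD70 (n = 3) left of untreated (n = 4), genes ordered by their mean. Ikzf1 lies above Foxp3 in every library, and the single low Foxp3 and Ikzf3 points (105 and 44.4 TPM) belong to the FcCD70 library numbered 2.

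Within each family the mean shares of 7 of the 8 genes came from groups whose ranges overlapped. Ikzf1 made up 53.4% ± 6.0 of the summed Ikaros family TPM with FcCD70 (SD, n = 3) and 53.8% ± 4.1 untreated (SD, n = 4). Foxp3 made up 69.3% ± 7.4 of the summed TPM of the 3 FOXP genes with FcCD70 and 71.9% ± 3.6 untreated. The lowest Foxp3 share, 61.1%, and the lowest Ikzf3 share of the Ikaros sum, 8.84%, were both in the FcCD70 library numbered 2. The exception was Ikzf5, at 5.50% to 7.16% of the Ikaros sum with FcCD70 and 4.93% to 5.44% untreated, values that were not tested. Such a share also moves with the other family members, and it has no counterpart over all genes tested. The highest Ikzf5 share was in the FcCD70 library numbered 2, where the Ikaros sum was lowest (502 TPM). The TPM of Ikzf5 itself overlapped, at 32.3 to 41.9 with FcCD70 and 28.6 to 37.7 untreated.

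None of the 8 genes passed the threshold between FcCD70 and untreated cultures. The values that follow are normalized counts (reads divided by the authors' size factor of each library), and the test was limma on log2(value + 1) with the replicate number as a block. Over 11083 genes it called 0 at a Benjamini-Hochberg adjusted p under 0.05, which is 0% of those tested, and 188 genes, or 1.7%, had an unadjusted p under 0.05. Of the members 0 had an unadjusted p under 0.05. Among them 4 had a log2 fold change above 0 and 4 below, beside 50.9% below 0 over all genes tested. Their median was -0.03, against -0.0035 over all genes tested. The adjusted p of each member in limma was 0.9998. By tool, edgeR on the recovered reads called 0 genes (168 with an unadjusted p under 0.05) and DESeq2 called 1 (141 with an unadjusted p under 0.05), Il17f, which is no member. Ikzf3 had an unadjusted p of 0.0307 and an adjusted p of 0.99999 in DESeq2.

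Foxp3 (ENSMUSG00000039521, chromosome X, 7573644 to 7595245 on GRCm38) had 5881, 2788 and 5948 normalized counts in the FcCD70 libraries numbered 1, 2 and 3. The untreated libraries numbered 1 to 4 had 6585, 5606, 4811 and 5126. In the FcCD70 group 1 library lay far below all others and the remaining pair lay within the untreated range, so the groups overlapped. The fitted log2 fold change was -0.29 (SE 0.21; 95% interval -0.77 to 0.19), or 0.82-fold with an interval of 0.59 to 1.14. The differences between same-numbered libraries were -0.16, -1.01 and 0.31 (log2) for the numbers 1, 2 and 3. Without the FcCD70 library numbered 2 the FcCD70 mean was 5914, and the log2 fold change turned to 0.11 (95% interval -0.04 to 0.26). In place of the block that fit had a covariate that sets the numbers 1 and 2 apart from 3 and 4, a split chosen with these data known. With neither covariate nor block the 95% interval was -0.17 to 0.38. In bulk RNA fewer cells that carry a transcript and less of it per cell cannot be told apart.

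Ikzf3, the Aiolos gene (ENSMUSG00000018168, chromosome 11, 98464902 to 98546031), had the smallest p of the members. It had 4896, 2255 and 3667 normalized counts in the FcCD70 libraries numbered 1, 2 and 3, against 5996, 4909, 3496 and 4083 in the untreated libraries numbered 1 to 4. The FcCD70 library numbered 2 was again the low one, at 0.50 times the mean of the other 6 libraries, as it was for Foxp3 at 0.49. The fitted log2 fold change stood at -0.45 (SE 0.20, 95% interval -0.90 to 0.001), with an unadjusted limma p of 0.0505 and an adjusted p of 0.9998. The same-numbered differences were -0.29, -1.12 and 0.07 (log2) for the numbers 1, 2 and 3, so that 2 of 3 were negative. Without the FcCD70 library numbered 2 and with the covariate, the value was -0.10 (95% interval -0.25 to 0.06). With neither covariate nor block the 95% interval was wider, at -0.56 to 0.37. The authors' deposited values may rest on all 8 samples, with the FcCD70 sample numbered 4 among them. For 0 genes was 8 times their mean count below the sum of the 7 columns, which allows this without showing it. Those values are therefore not set against the 7-library fits as a repeat of them. In the authors' deposited table, whose mean counts differ from those of the 7 columns, the log2 fold change (sign turned so that a positive value is higher with FcCD70) was -0.38 for Ikzf3 (DESeq2 p = 0.0174) and -0.21 for Foxp3 (DESeq2 p = 0.196), and both adjusted p-values there were 0.99999.

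Without the libraries numbered 3 the values of both genes were further below 0, at -0.59 for Foxp3 and -0.71 for Ikzf3. Their unadjusted limma p-values were then 0.0128 and 0.00222, where 4.36% of 11118 genes had one under 0.05. The adjusted p-values were 0.861 and 0.426, and 6 genes, or 0.054%, passed the adjusted threshold.

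**Figure D2:**
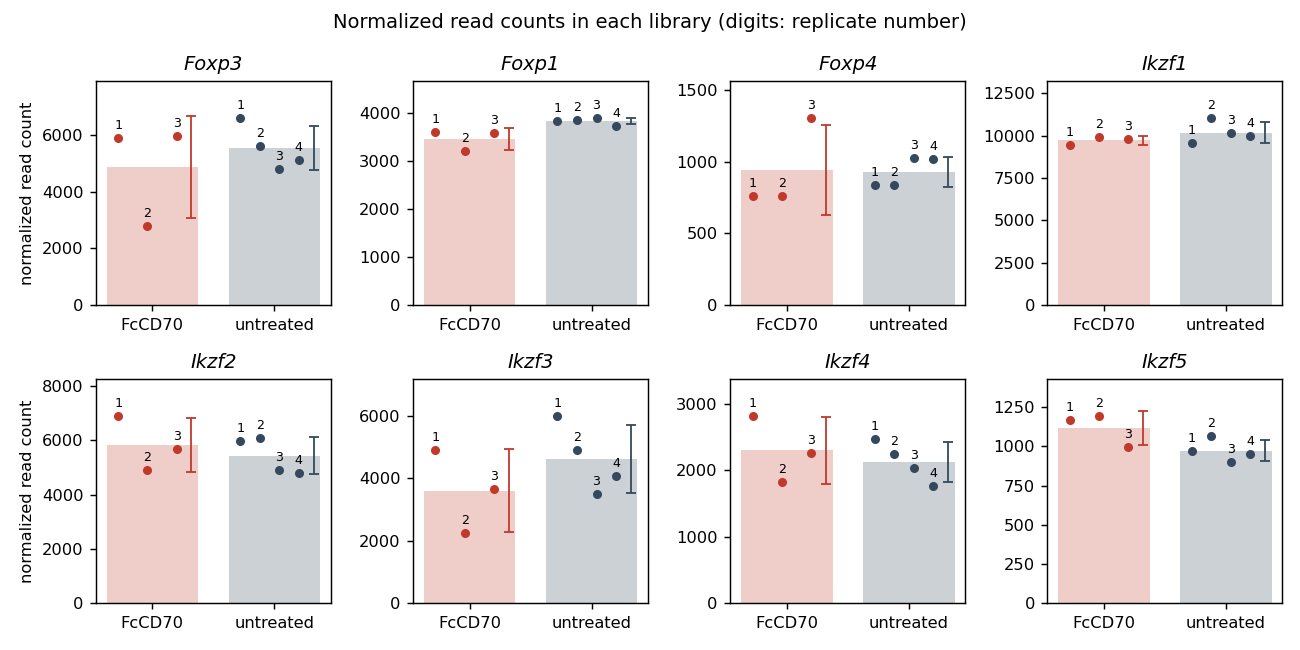
Normalized read counts of the 8 genes in each library, as points over a bar for the group mean, with its SD as an error bar at the right of the bar (FcCD70, n = 3, left; untreated, n = 4, right), and digits for the replicate number. Foxp3 and Ikzf3 share a low FcCD70 library numbered 2 (2788 and 2255), while Ikzf1 spans only 9431 to 11019 over all libraries.

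The low value of that library was not shared by the whole family. Of the 8 members 4 (Foxp3, Foxp1, Foxp4 and Ikzf3) had their lowest of 7 values there, beside 28.4% of all genes tested. Ikzf1 had 0.995 times the mean of the other libraries in it, Ikzf2 0.859, Ikzf4 0.803 and Ikzf5 1.18 times. Foxp3 and Ikzf3 spanned 2.36-fold and 2.66-fold from their lowest to their highest library. Ikzf1, Foxp1 and Ikzf5 spanned 1.17-fold, 1.21-fold and 1.32-fold. The SD of the Ikzf1 log2 values over the 7 libraries exceeded that of 3.63% of the genes tested, and that of Ikzf3 exceeded 84.1%.

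Ikzf1, the Ikaros gene (ENSMUSG00000018654, chromosome 11, 11685003 to 11772926), was nearly constant. It had 9431, 9946 and 9831 normalized counts in the FcCD70 libraries and 9544, 11019, 10176 and 9976 in the untreated ones. All FcCD70 values lay below 3 of the 4 untreated ones, and the ranges overlapped. The fitted log2 fold change came to -0.07 (SE 0.13, 95% interval -0.36 to 0.22), and the value was lower with FcCD70 in 3 of 3 pairs, as for 9.61% of the genes tested.

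Foxp1 (ENSMUSG00000030067, chromosome 6, 98925338 to 99522721) was the only member whose groups did not overlap in normalized counts. It had 3610, 3210 and 3593 normalized counts in the FcCD70 libraries, against 3833, 3855, 3895 and 3745 in the untreated ones. Every FcCD70 value lay below every untreated value, which was so for 1.18% of the genes tested, with 1.34% the other way round. Leaving out the FcCD70 library numbered 2 could not undo this, so it adds no support. Without that library the condition is weaker, and 3.96% of genes met it. In TPM the Foxp1 groups did overlap, at 40.2 to 53.8 with FcCD70 and 49.6 to 56.7 untreated. The separation thus depends on the scaling. The difference was small, with a fitted log2 fold change at -0.16 (SE 0.12, 95% interval -0.42 to 0.11) and means of 3471 ± 226 with FcCD70 (SD, n = 3) and 3832 ± 63.3 untreated (SD, n = 4). The 3 same-numbered pairs gave -0.09, -0.26 and -0.12. Without the FcCD70 library numbered 2 the log2 fold change was -0.09 (95% interval -0.21 to 0.03).

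Foxp4 (ENSMUSG00000023991, chromosome 17, 47867133 to 47924645) followed the replicate number more than the group. It had 762 and 759 normalized counts in the FcCD70 libraries numbered 1 and 2 and 1302 in the one numbered 3. The untreated libraries numbered 1 and 2 had 834 and 836, and those numbered 3 and 4 had 1025 and 1017. In both groups the numbers 1 and 2 were the low ones. The fitted log2 fold change came to 0.03 (SE 0.15, 95% interval -0.31 to 0.36), with pairs at -0.13, -0.14 and 0.35. It turned to -0.13 without the libraries numbered 3.

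**Figure D3:**
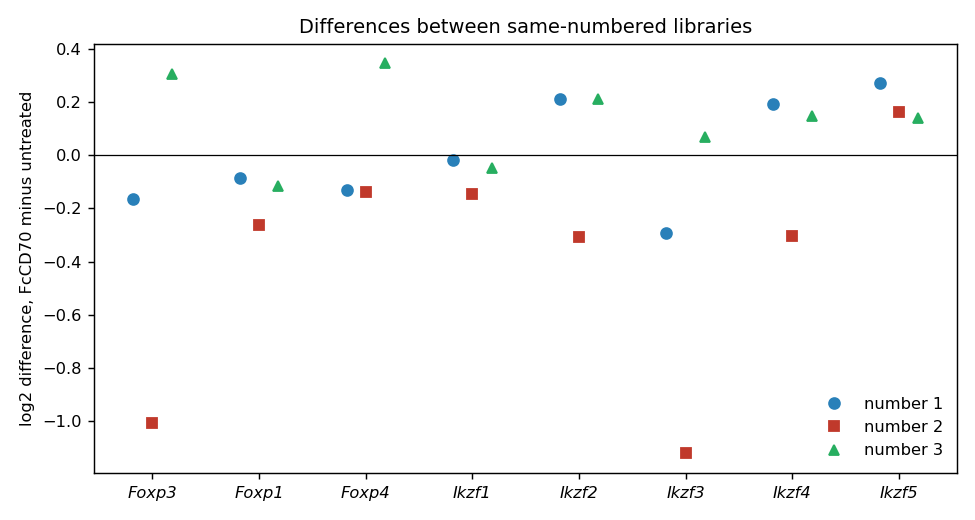
Difference of log2(normalized count + 1), FcCD70 minus untreated, between libraries of the same number (1, 2 and 3) for each gene. Foxp3 (-1.01) and Ikzf3 (-1.12) stand far below 0 in the pair numbered 2, and Ikzf5 lies above 0 in all 3 pairs.

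Helios and Eos transcripts had nearly the same pattern over the pairs. Ikzf2 (ENSMUSG00000025997, chromosome 1, 69531214 to 69687245) had 6898, 4914 and 5678 normalized counts in the FcCD70 libraries, and 5964, 6077, 4907 and 4809 in the untreated ones. Ikzf4 (ENSMUSG00000002578, chromosome 10, 128630843 to 128645991) had 2815, 1816 and 2259 in the FcCD70 libraries, and 2464, 2241, 2037 and 1759 in the untreated ones. For each gene the FcCD70 library numbered 1 was the highest of all 7 and the ranges overlapped.

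The same-numbered differences of Ikzf2 were 0.21, -0.31 and 0.21, and those of Ikzf4 were 0.19, -0.30 and 0.15. Over the 7 libraries the log2 fold change was 0.04 for Ikzf2 (SE 0.14, 95% interval -0.28 to 0.36) and 0.01 for Ikzf4 (SE 0.14, 95% interval -0.30 to 0.32). Without the FcCD70 library numbered 2, with the covariate, Ikzf2 had 0.21 (95% interval 0.10 to 0.32) and Ikzf4 had 0.26 (95% interval 0.11 to 0.41). With neither covariate nor block the estimates were the same and both intervals crossed 0, at -0.08 to 0.50 for Ikzf2 and -0.07 to 0.58 for Ikzf4 (limma, adjusted p = 0.99998 for each). The unadjusted limma p-values with the covariate were 0.000695 and 0.00213, and neither passed over all genes (adjusted p = 0.181 and 0.203). With the covariate 9.09% of 11103 genes had an unadjusted p under 0.05 and 6 passed the adjusted threshold, or 0.054%. With the block in place of the covariate, a fit on the pairs numbered 1 and 3 alone with 1 residual degree of freedom, Ikzf2 had 0.21 (95% interval 0.05 to 0.37) and Ikzf4 0.17 (95% interval -0.01 to 0.35). The adjusted p-values were then 0.435 and 0.810, and 6.41% of genes had an unadjusted p under 0.05 and 0.18% passed.

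Ikzf5, the Pegasus gene (ENSMUSG00000040167, chromosome 7, 131388652 to 131410521), had 1169, 1194 and 995 normalized counts in the FcCD70 libraries and 968, 1067, 903 and 954 in the untreated ones. The FcCD70 libraries numbered 1 and 2 lay above all untreated ones, and the one numbered 3 within their range. The fitted log2 fold change came to 0.19 (SE 0.13, 95% interval -0.10 to 0.48), and the value was higher with FcCD70 in 3 of 3 pairs, as for 9.03% of the genes tested. Pstk, whose exons overlap most of Ikzf5 on the opposite strand, had 746, 972 and 638 normalized counts in the FcCD70 libraries and 579, 605, 655 and 625 in the untreated ones. Both genes were highest in the FcCD70 library numbered 2, and whether they share reads was not tested.

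**Figure D4:**
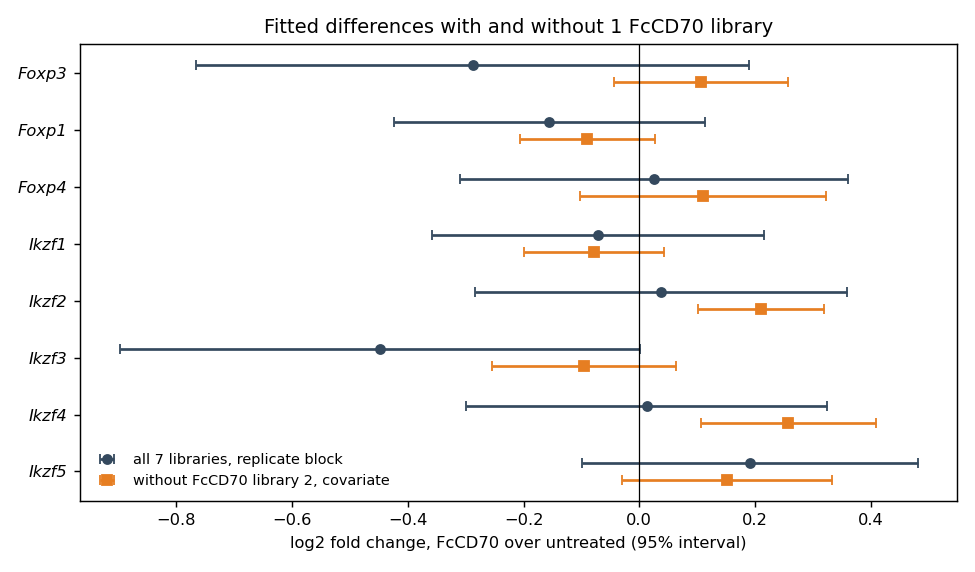
Fitted log2 fold change of each gene, FcCD70 over untreated, with its 95% interval: circles for all 7 libraries with the replicate block, squares without the FcCD70 library numbered 2 and with the covariate. With all libraries and without that one, Foxp3 is at -0.29 and 0.11 and Ikzf3 at -0.45 and -0.10, and 2 of the squares (Ikzf2 and Ikzf4) have intervals above 0, which cross 0 where that fit has no covariate.

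Within the untreated group a split by replicate number was common among all genes tested, and whether the members split more often than other genes was not tested. In 5 of the 8 members (Foxp3, Ikzf2, Ikzf3, Ikzf4 and Ikzf5) both libraries numbered 1 and 2 lay above both numbered 3 and 4, as for 29.4% of the genes tested, and in Foxp4 they lay below, as for 30.5%. Ikzf3 averaged 5453 in the untreated libraries numbered 1 and 2 and 3789 in those numbered 3 and 4. For Foxp3 these means were 6095 and 4968. Between the FcCD70 libraries numbered 1 and 3, Ikzf3 differed by 0.42 (log2), Foxp4 by -0.77 and Foxp3 by -0.02. The labels do not say what the number stands for.

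The genes whose values went most like Foxp3 over the 7 libraries were Arhgef11, Zfp687, Zfp607a, Nup98 and Ttll5. Likeness was measured as the root mean square difference of centred log2 values among 9529 genes with a mean of at least 50, and for these 5 genes it was 0.06 to 0.08, against a median of 0.42 over all candidates. Arhgef11 had 1803, 880 and 1772 normalized counts in the FcCD70 libraries and 1966, 1836, 1632 and 1649 in the untreated ones, with the same single low library. Ikzf3 ranked 248th by this measure (0.17), nearer to Foxp3 than any other member. Without the FcCD70 library numbered 2 the nearest genes were instead Kcna3, Zgpat, Nek4, Rrnad1 and Dusp19, and Ikzf2 (0.13, rank 1134) was the nearest member. For Ikzf3 the nearest genes were Gabpb2, Star, Ahrr, Fam173b and Tmc3 over the 7 libraries (0.10 to 0.12), and Mcm7, Caprin2, Amt, Slc25a53 and Dhrs4 without that library.

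Partners, regulators and targets of these factors gave no call in limma either. Of 42 tested genes in a list of FOXP3 partners and regulators 17 had a log2 fold change above 0 and 25 below. Over all genes tested 50.9% lay below 0. The median of the list was -0.07, and 0 of its genes passed the adjusted threshold. Among those of the list with the smallest p were Hdac9 (a histone deacetylase gene, 0.31) and Irf4 (a transcription factor gene of activated T cells, -0.32). Hdac9 was higher with FcCD70 in 3 of 3 pairs, as for 9.03% of the genes tested. Irf4 was lower in 3 of 3, as for 9.61%. In the FcCD70 library numbered 2, 21 of the 42 had their lowest value, beside 28.4% of all genes tested. Differences between lists in such counts were not tested. Among 28 tested Treg signature genes 13 lay above and 15 below 0 (median -0.02), 0 passed, and 5 had their lowest value in that library. Nrp1 (0.34), Tigit (0.37) and Gpr83 (-0.24) had the smallest p in this list.

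Of 13 tested genes known to be repressed in FOXP3-expressing cells, 5 lay above and 8 below 0, beside 50.9% below 0 over all genes tested. The median of the 13 was -0.08, and 0 passed. Il17f (-1.57), Il7r (the IL-7 receptor gene, 0.42) and Il17a (-0.84) led them by p. Il17f, a Th17 cytokine gene, had 191, 335 and 41.4 normalized counts in the FcCD70 libraries and 642, 563, 196 and 248 in the untreated ones, with overlapping ranges. It was lower with FcCD70 in 3 of 3 pairs, as for 9.61% of the genes tested. Its unadjusted p was 0.000214 and its adjusted p 0.9998 in limma, and it was the gene DESeq2 called (adjusted p = 0.000565). None of the 13 had its lowest value in the FcCD70 library numbered 2, beside 28.4% of all genes tested. The corepressor list, which holds NuRD, SIN3 and CtBP genes and Smarca4 (an ATPase gene of the SWI/SNF complex), had 6 of 18 genes above 0 and 12 below, with a median of -0.01 and 0 past the threshold. Chd3, a helicase gene of NuRD, had the smallest p of that list. It had 21624, 12854 and 24622 normalized counts in the FcCD70 libraries and 22066 to 23280 in the untreated ones, so that 1 FcCD70 library was low as for Foxp3. Its log2 fold change was -0.25, and Rbbp4 and Mta1 had 0.17 and -0.15. The 5 genes of the cereblon ubiquitin ligase, which in human cells degrades Ikaros proteins in the presence of thalidomide-type drugs, had 3 log2 fold changes above 0 and 2 below, with Ddb1 at -0.09, Cul4b at -0.04 and Cul4a at 0.04, and 0 passed.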

How the data were processed

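Per the labels' protocols, a TruSeq mRNA kit that marks strand was used on RNA of sorted cells. The submitters' processing notes list TopHat2, SAMtools, HTSeq and DESeq2 as tools and GRCm38.p4 as the build, without saying what each was used for. The authors deposited the library columns as a signal, read counts over 1 size factor per library, as the values show: 100% were whole multiples of 1 step within 0.01, so reads could be recovered. The authors' deposited log2 fold changes, Wald score and p-values stand in columns named as DESeq2 names them, per the file headers. Their direction was taken as untreated minus FcCD70, and they were turned where printed. Among genes with a deposited log2 fold change beyond 0.5 in size, 90.9% had the sign of that difference between the column means. The sample titled FcCD70 and numbered 4 is not analysed here, but the authors' deposited fold changes and p-values may include it.

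Here limma (3.58.1, with a trend) was fitted to log2(value + 1) of genes with a mean of at least 10, with group and replicate number, two-sided, Benjamini-Hochberg over all genes. Fold changes on this scale understate those of low genes. With the block the untreated library numbered 4 has no partner, and 2 residual degrees of freedom remain. edgeR (4.0.16) and DESeq2 (1.42.0) on recovered reads, other scalings, filters and pseudocounts, and left-out libraries were alternatives. The fits were tested on simulated reads. TPM used recovered reads and GENCODE M21 exon lengths over genes of the table. Members, gene lists, the covariate and the rule for named genes (the members, the 3 smallest p of each list, and the 5 genes most like Foxp3 and the most variable other member) were chosen with earlier results of these data known. Coding sequences come from the annotated transcripts. Some of these sequences, and 1 gene that the rule names, are not reported here.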

Additional observations from a re-analysis of the deposited data

How the results depend on the processing

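Over 23 alternatives none of the 8 genes passed the adjusted threshold, and Foxp1, Ikzf1, Ikzf3 and Ikzf5 kept their sign in all. The number of genes called was 0, and it was 1 with DESeq2, 6 without the FcCD70 library numbered 2 with the covariate, and 20 without it with the replicate block (a fit added after seeing the data). When libraries were left out it ran from 0 to 20, with 19 without the libraries numbered 2 and 6 without those numbered 3, fits with 1 residual degree of freedom.

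Leaving out libraries gave log2 fold changes of -0.59 to 0.11 for Foxp3, -0.28 to 0.11 for Foxp4, -0.048 to 0.21 for Ikzf2, -0.077 to 0.26 for Ikzf4, -0.71 to -0.10 for Ikzf3, -0.19 to -0.09 for Foxp1, -0.10 to -0.02 for Ikzf1 and 0.15 to 0.28 for Ikzf5. Foxp3 turned to 0.11 without the FcCD70 library numbered 2, with the covariate or with neither, and to 0.071 with the replicate block or without both libraries numbered 2. Without the replicate block Foxp4 turned to -0.021, and in block-free fits to -0.28 without the FcCD70 library numbered 3 and to -0.069 and -0.068 without the untreated libraries numbered 1 and 2. With the block, leaving out both libraries numbered 3 gave -0.134 for Foxp4, -0.048 for Ikzf2 and -0.055 for Ikzf4, and leaving out both numbered 1 gave -0.048 for Ikzf2 and -0.077 for Ikzf4. Without the FcCD70 library numbered 1 and the block, Ikzf2 had -0.034 and Ikzf4 -0.058. The cause was not tested.

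Deviations of same-numbered libraries from their group means correlated at 0.30, 0.014 and 0.43 over 11083 genes for the numbers 1, 2 and 3, and the FcCD70 library numbered 2 did not correlate best with its own number, so the numbers are not shown to pair the samples. The replicate block follows the word paired on the authors' deposited table; without it 0 genes were called, with 120 at an unadjusted p under 0.05. Each member had at least 676 reads in each library, and the groups had 3 and 4 libraries; which of these limits the precision more was not tested.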
